A study of Mus musculus with 12 samples.

Results

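The genes described are 10 of the 43432 in the count table: the hexokinases *Hk1* and *Hk2*, the phosphofructokinases *Pfkm* and *Pfkp*, aldolase A (*Aldoa*), phosphoglycerate kinase (*Pgk1*), pyruvate kinase (*Pkm*), the lactate dehydrogenase subunits *Ldha* and *Ldhb*, and the monocarboxylate carrier *Slc16a1* (MCT1). They were chosen by name, as enzymes of glycolysis and the carrier by which Schwann cells pass lactate to axons. The choice was made with earlier results of these data known. RNA came from sciatic nerves of mice aged 1 month, 1 nerve of 1 mouse per library. The 4 WT control mice carried *Mtmr2* wt/wt and had no treatment. The 4 *Mtmr2* KO mice carried *Mtmr2* -/- and served as a model of Charcot-Marie-Tooth disease type 4B1, and their treatment is given as none in the sample labels and as vehicle in the study's text. The 4 niacin-treated *Mtmr2* KO mice carried the same genotype and received niacin by intraperitoneal injection at 120 mg/kg from day 10 to day 21, then slow release niacin (Niacin-SR) by gavage to day 30. Libraries are named by the numbers in their labels, 4497 to 4500 for WT control, 4501 to 4504 for *Mtmr2* KO and 4505 to 4508 for niacin-treated *Mtmr2* KO.

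Glycolysis splits glucose into pyruvate in the cytosol. Hexokinase traps glucose as its phosphate, phosphofructokinase makes the committed step, aldolase cleaves the sugar, and phosphoglycerate kinase and pyruvate kinase return ATP. Lactate dehydrogenase then interconverts pyruvate and lactate, with LDHA subunits favouring lactate formation and LDHB subunits its use, and MCT1 moves lactate with a proton across the plasma membrane. In peripheral nerve, myelinating Schwann cells are thought to run glycolysis and to hand lactate to the axons they wrap, and loss of MCT1 from Schwann cells is known to disturb myelin and axon upkeep.

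Several of these genes are textbook targets of the hypoxia-inducible factors, whose core site reads ACGTG or GCGTG, so the promoters of the 4 members around which the results turn, those of lactate handling and *Pgk1*, are shown with each match in capitals. The sequences are the 250 bases before a RefSeq start on GRCm38.p6, read 5′ to 3′ on the strand of the gene. Both strands were searched, so the reverse complements CACGT and CACGC are capitals too, and CACGTG, which is also the E-box read by MYC and related factors, counts as 2 overlapping matches.
*Ldha* (chr7:46845554-46845803, strand plus): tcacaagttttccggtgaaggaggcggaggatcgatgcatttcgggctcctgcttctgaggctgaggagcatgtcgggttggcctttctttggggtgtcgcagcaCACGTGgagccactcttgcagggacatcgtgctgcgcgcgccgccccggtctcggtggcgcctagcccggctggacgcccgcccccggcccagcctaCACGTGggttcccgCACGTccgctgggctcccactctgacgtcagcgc
*Ldhb* (chr6:142507958-142508207, strand minus): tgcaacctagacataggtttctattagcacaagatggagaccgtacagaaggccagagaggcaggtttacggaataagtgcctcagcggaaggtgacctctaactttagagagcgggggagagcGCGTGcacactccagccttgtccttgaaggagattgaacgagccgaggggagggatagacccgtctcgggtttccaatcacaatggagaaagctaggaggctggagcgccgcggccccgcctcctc
*Pgk1* (chrX:106186850-106187099, strand plus): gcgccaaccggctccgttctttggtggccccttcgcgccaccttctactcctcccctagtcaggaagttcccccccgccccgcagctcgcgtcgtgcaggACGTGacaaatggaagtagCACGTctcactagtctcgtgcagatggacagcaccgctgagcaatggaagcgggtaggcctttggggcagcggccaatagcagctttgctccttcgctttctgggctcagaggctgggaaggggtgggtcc
*Slc16a1* (chr3:104638414-104638663, strand plus): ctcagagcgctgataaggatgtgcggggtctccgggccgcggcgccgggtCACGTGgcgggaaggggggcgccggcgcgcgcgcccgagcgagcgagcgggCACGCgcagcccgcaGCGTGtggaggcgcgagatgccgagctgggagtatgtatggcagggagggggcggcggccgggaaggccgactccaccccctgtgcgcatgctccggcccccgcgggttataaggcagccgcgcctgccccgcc
The window of *Ldha* held 5 matches to ACGTG, those of *Pgk1* and *Slc16a1* held 2 each, and that of *Ldhb* held none. GCGTG matched 2 times in *Slc16a1*, 1 time in *Ldhb*, and not in the windows shown of *Ldha* and *Pgk1*. *Ldha* has a second RefSeq start, whose window (chr7:46846832-46847081) held 1 match to GCGTG and none to ACGTG, and the counts do not say which start these nerves used. All 10 members had a window in the RefSeq table, 18 windows in all, and 14 of these held a match to either form. Some windows of *Aldoa* overlap each other, as do some of *Pfkm*, so a match they share was counted more than once. Of the 32851 windows of the same length across the genome, 38.6% held either form, 16.6% ACGTG and 28.2% GCGTG. The member windows ran from 36.4% to 76.4% GC, and the genome windows were not matched to them for GC, so the shares do not show enrichment. These are matches of letters, not sites shown to be bound.

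*Mtmr2* itself was read first, as a check of the labels. Its level, in CPM (counts scaled to a common library total and by TMM factors), was 161, 130, 128 and 137 in WT control, 71.6, 84.7, 143 and 69.5 in *Mtmr2* KO, and 66.8, 68.5, 68.3 and 73.5 with niacin. The library labelled *Mtmr2* KO 4503 therefore lay within the WT control range, and comparisons by edgeR that use it are given with and without it. DESeq2 and limma-voom were not run without 4503, so their values for *Mtmr2* KO all include it. Library 4502 also stood apart, with summed neuron and axon markers of 155 CPM against 23.2 to 58.6 CPM in the other 11 libraries and the lowest sample quality weight, 0.149, in limma-voom. The 2 niacin-treated libraries 4506 and 4507 held summed levels of 20 skeletal muscle markers (17 of them high enough to test) of 4521 and 4504 CPM, against 76.2 to 137 CPM in WT control, 91.0 to 136 CPM in *Mtmr2* KO and 153 and 198 CPM in the other niacin libraries. Of the 17 tested, 10 were called higher in niacin against *Mtmr2* KO, *Myh2*, *Tnnt3* and *Ckm* among them, with a median log2 fold change of 4.86, or 0.67 without those 2 libraries. Without 4503 the median was 4.84 and none of 18 tested was called. Of the 20 markers 0 to 2 had no count in a library, *Tnnc2*, *Myh7* and *Mb* among them. Of the myelinating Schwann cell markers, *Pmp22* ran from 22580 to 34860 CPM and *Mbp* from 21370 to 33560 CPM, high in every library. Library totals ran from 20763951 to 33191106 counts, and a member had between 331 (*Hk2*) and 30118 (*Aldoa*) counts in a library, so counting error was small beside the spread between mice. The SD of log2 CPM of a gene, as the median over all tested genes, was 0.160 in WT control, 0.395 in *Mtmr2* KO and 0.221 with niacin.

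Per kilobase of exon, the mean level over the 12 libraries ordered the members as *Aldoa* (294 CPM per kb), *Ldhb* (274), *Ldha* (95.4), *Pkm* (89.0), *Pgk1* (74.6), *Slc16a1* (32.7), *Pfkm* (27.5), *Hk1* (11.7), *Hk2* (4.79) and *Pfkp* (2.75). Neighbours in this order such as *Ldha* and *Pkm* or *Aldoa* and *Ldhb* changed places between groups: in *Mtmr2* KO the mean per kilobase was 313 for *Ldhb* and 279 for *Aldoa*, and 79.4 for *Ldha* and 81.3 for *Pkm*. The muscle form *Pfkm* exceeded *Pfkp* in every library on this scale, and *Hk1* exceeded *Hk2*. The order depends on the exon length used, which was 13401 bases for *Pfkp*, 3340 for *Pfkm* and 5969 for *Hk2*. In mean CPM over the 12 libraries, without that length, *Pfkp* (36.8) was above *Hk2* (28.6).

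Among the 10 members none was called in any of the 3 comparisons by edgeR's quasi-likelihood test over the 12 libraries with Benjamini-Hochberg adjustment (called below 0.05). The same fit called 0.267% of the 17257 genes tested in *Mtmr2* KO against WT control, 1.43% in niacin against *Mtmr2* KO and 0.0% in niacin against WT control, where 4254 genes had an unadjusted p under 0.05. At an unadjusted p under 0.05, 4, 3 and 5 members passed in the 3 comparisons, beside 17.2%, 20.1% and 24.7% of all genes tested. DESeq2 over the same libraries called 2, 1 and 0 members, beside 3.71%, 6.22% and 7.0% of the genes to which it gave an adjusted p. Calls by limma-voom with sample quality weights numbered 0, 2 and 6 members, beside 0.626%, 11.6% and 42.4% of all genes. Without 4503 edgeR again called no member in any comparison, and the genes called over the whole table went from 46 to 6, from 246 to 13 and from 0 to 304. The comparisons share libraries, so their values for a member are given side by side and are not independent of each other.

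**Figure D1:**
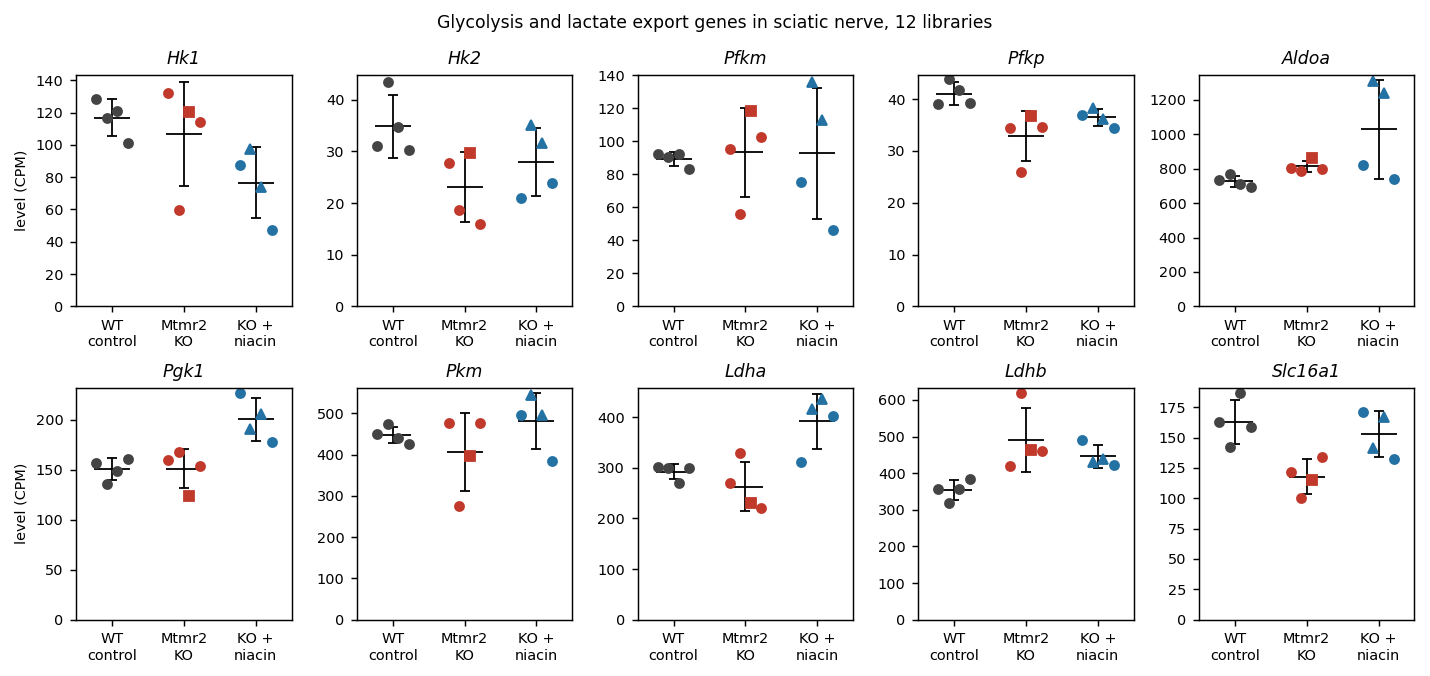
Level (CPM after TMM scaling, linear axes from 0) of the 10 genes in each of 12 libraries, with the group mean as a bar and the SD as whiskers (4 libraries each). Triangles mark the muscle-marked libraries 4506 and 4507 and squares the library labelled *Mtmr2* KO 4503. The *Slc16a1* points of *Mtmr2* KO lie below all WT control points, and the *Pgk1* points of the niacin group lie above all others, with 178 CPM as the lowest niacin value and 168 CPM as the highest in the other groups.

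*Slc16a1*, the lactate carrier, had its lowest levels in *Mtmr2* KO, with a difference from WT control that edgeR did not call. It stood at 163, 143, 187 and 159 CPM in WT control and 122, 100.3, 115 and 134 CPM in *Mtmr2* KO. With niacin it was 171, 142, 167 and 132 CPM. Every *Mtmr2* KO library, 4503 included, lay below every WT control library, whereas the niacin libraries overlapped both groups. The log2 fold change of *Mtmr2* KO against WT control was -0.47 ± 0.14 (SE), a level 27.6% lower, with an adjusted p of 0.127 by edgeR's quasi-likelihood test. Without 4503 it was -0.46 (adjusted p = 0.166). DESeq2 over 12 libraries put the same gene past the threshold, with an adjusted p of 0.0489. In niacin against *Mtmr2* KO the log2 fold change was 0.38 ± 0.14 (adjusted p = 0.156 by edgeR) and in niacin against WT control -0.09 ± 0.14 (adjusted p = 0.705 by edgeR), and leaving out 4506 and 4507 gave 0.36 and -0.13. Without 4503 the former was 0.37 (adjusted p = 0.307). *Slc16a1* is also expressed by perineurial and endothelial cells, and the part of these cells in its level was not tested. The summed level of 8 of their markers was 1043 to 1273 CPM in WT control, 825 to 1278 CPM in *Mtmr2* KO and 677 to 913 CPM with niacin. *Itgb4* was the largest part of that sum in WT control, at 377 to 547 CPM. The 8 markers did not move together: in niacin against WT control 1 lay wholly higher and 4 wholly lower, beside 14.9% and 16.6% of all genes. In whole nerve, fewer cells of a type and less RNA per cell cannot be told apart, here or for any other member.

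*Ldhb* was above WT control in both groups of *Mtmr2* -/- mice, again without a call over the 12 libraries. The subunit that favours lactate use stood at 357, 319, 357 and 383 CPM in WT control and at 420, 618, 465 and 461 CPM in *Mtmr2* KO. It was 491, 431, 438 and 422 CPM with niacin. All 8 libraries of *Mtmr2* -/- mice lay above the 4 WT control libraries, and the niacin libraries overlapped the untreated ones. The log2 fold change of *Mtmr2* KO against WT control was 0.47 ± 0.15, 38.7% higher (adjusted p = 0.141 by edgeR, 0.0381 by DESeq2), and it was 0.50 without 4503 and 0.34 without 4502, the library with the highest value. Against WT control the niacin group gave 0.33 ± 0.15 (adjusted p = 0.185 by edgeR), and against *Mtmr2* KO -0.14 ± 0.15 (adjusted p = 0.620), or -0.16 without 4503.

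*Ldha*, which favours lactate formation, had its highest group mean with niacin. It read 302, 299, 270 and 299 CPM in WT control. *Mtmr2* KO libraries held 271, 329, 232 and 221 CPM. Niacin libraries held 312, 416, 436 and 403 CPM. The niacin group lay above all WT control libraries, and the untreated *Mtmr2* KO library 4502, at 329 CPM, was the only one to reach into its range. The log2 fold change of niacin against *Mtmr2* KO was 0.58 ± 0.16, 49.0% higher, with an adjusted p of 0.0803 by edgeR, 0.00628 by DESeq2 over 12 libraries and 0.0114 by limma-voom. Without 4502 edgeR called it (0.68, adjusted p = 0.00629), in a fit that called 9.85% of all genes higher and 13.7% lower in this comparison. Without 4503 it gave 0.52 (adjusted p = 0.189), and without the muscle-marked 4506 and 4507 the fold was 0.43 (adjusted p = 0.430). Against WT control the niacin group was 0.42 ± 0.16 higher (adjusted p = 0.144 by edgeR), or 0.26 without 4506 and 4507. In *Mtmr2* KO against WT control *Ldha* gave -0.15 ± 0.16 (adjusted p = 0.638 by edgeR), or -0.10 without 4503.

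The 2 lactate dehydrogenase genes were also compared as a ratio of counts within each library, which does not depend on library scaling. *Ldha* over *Ldhb* was 0.846, 0.940, 0.756 and 0.781 in WT control. It was 0.645, 0.532, 0.498 and 0.478 in *Mtmr2* KO. It was 0.636, 0.964, 0.996 and 0.954 with niacin. All *Mtmr2* KO ratios, 4503 included, lay below all WT control ratios, while 1 niacin library, 4505, sat among the untreated *Mtmr2* KO values and the other 3 above every WT control value. The mean log2 ratio differed by -0.63 between *Mtmr2* KO and WT control (-0.90 ± 0.19 against -0.27 ± 0.14, SD, n = 4 each; exact permutation p = 0.0286, two-sided, the smallest that 4 against 4 can give; 0.257 after Benjamini-Hochberg adjustment over 15 ratio tests). Between niacin and *Mtmr2* KO it differed by 0.71 (exact permutation p = 0.0571, adjusted 0.257), by 0.54 without 4506 and 4507, and between niacin and WT control by 0.08 (exact permutation p = 0.686, adjusted 0.857). Without 4503 the first difference was -0.60 (exact permutation p = 0.0571, the smallest that 3 against 4 can give) and the second 0.67 (exact permutation p = 0.114). None of the 15 ratio tests passed after adjustment. *Ldhb* had the larger count of the pair in all 12 libraries, and in 3 of the 4 *Mtmr2* KO libraries it was about 2 times that of *Ldha*.

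**Figure D2:**
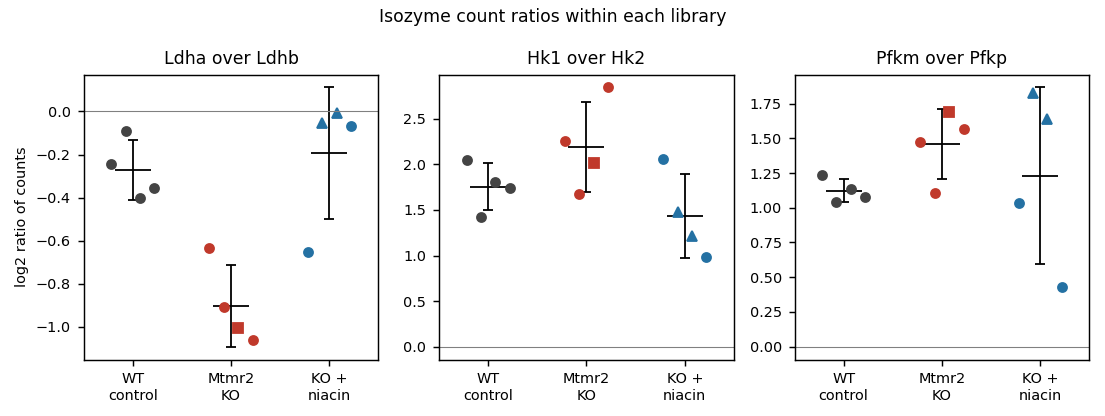
Log2 ratio of counts within each library for 3 isozyme pairs, 1 point per library, with the group mean and SD (4 libraries each), triangles for 4506 and 4507 and a square for 4503. *Ldha* over *Ldhb* lies between -1.06 and -0.63 in *Mtmr2* KO and between -0.40 and -0.09 in WT control, and the spread of *Pfkm* over *Pfkp* is widest in the niacin group.

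*Pgk1*, the first enzyme of the pathway to make ATP, was the member most clearly apart in the niacin group. It read 157, 136, 149 and 161 CPM in WT control. It read 159, 168, 123 and 154 CPM in *Mtmr2* KO. It read 227, 191, 206 and 178 CPM with niacin. No niacin library overlapped any of the other 8, and the WT control and untreated *Mtmr2* KO ranges covered each other. The log2 fold change was 0.41 ± 0.13 against both *Mtmr2* KO (32.6% higher, adjusted p = 0.120 by edgeR) and WT control (33.1% higher, adjusted p = 0.115 by edgeR). Between *Mtmr2* KO and WT control it was 0.01 ± 0.13 (adjusted p = 0.986), or 0.09 without 4503. Leaving out 4506 and 4507 left it at 0.41 against *Mtmr2* KO and 0.40 against WT control, and the highest value of all was in 4505, whose muscle markers summed to 153 CPM. Without 4502 edgeR called it in both niacin comparisons (adjusted p = 0.0270 and 0.0325), as it did 9.85% and 8.9% of all genes in the same direction. Without 4503 it gave 0.32 against *Mtmr2* KO (adjusted p = 0.291).

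Of the hexokinases, *Hk1*, the broadly expressed form, had its lowest levels with niacin, not called over the 12 libraries. It stood at 128, 117, 121 and 101 CPM in WT control. In *Mtmr2* KO it was 132, 59.6, 121 and 114 CPM, and with niacin 87.5, 97.7, 73.7 and 47.1 CPM. All niacin libraries lay below all WT control libraries, and of the *Mtmr2* KO libraries 4503 and 4504 fell in the WT control range, 4501 just above it and 4502 below. Against WT control the niacin group gave -0.61 ± 0.24 (adjusted p = 0.163 by edgeR) and against *Mtmr2* KO -0.48 ± 0.24 (adjusted p = 0.287), which became -0.69 (adjusted p = 0.0252) without 4502, where 13.7% of all genes were called lower, and -0.42 without 4503. Between *Mtmr2* KO and WT control it gave -0.13 ± 0.24 (adjusted p = 0.809), 0.06 without 4502 and -0.19 without 4503. *Mbp*, a myelin gene of Schwann cells, was 33560, 27400, 24750 and 21370 CPM in the niacin libraries against 21430 to 26850 CPM in WT control, overlapping it, with the lowest value of both genes in 4508, and the part of Schwann cells in the *Hk1* result was not tested. Exons of *Hk1* overlap those of *Hk1os* on the other strand.

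*Hk2*, the insulin-responsive hexokinase of muscle and fat, had its lowest group mean in *Mtmr2* KO. It read 31.0, 43.5, 34.7 and 30.2 CPM in WT control and 27.8, 18.7, 29.8 and 15.9 CPM in *Mtmr2* KO. It read 21.1, 35.2, 31.7 and 23.8 CPM with niacin. The *Mtmr2* KO libraries lay below all WT control libraries by a narrow gap, between 29.8 and 30.2 CPM, the upper edge being 4503. The log2 fold change was -0.59 ± 0.22 in *Mtmr2* KO (33.7% lower, adjusted p = 0.194 by edgeR), and -0.74 (adjusted p = 0.144) without 4503. With niacin it was 0.28 ± 0.22 against *Mtmr2* KO and -0.32 ± 0.22 against WT control (adjusted p = 0.504 and 0.359 by edgeR), and without the muscle-marked 4506 and 4507, its highest niacin values, these became -0.05 and -0.66. Without 4503 the former was 0.42. The 10 adipocyte markers summed to 2593 to 3412 CPM in WT control, 756 to 4567 CPM in *Mtmr2* KO and 2170 to 4424 CPM with niacin. Of these markers *Lep* and *Plin1* were called lower in *Mtmr2* KO against WT control (-2.03 and -1.84, adjusted p = 0.0364 and 0.0448 by edgeR) and *Lep* higher in niacin against *Mtmr2* KO (1.84, adjusted p = 0.0383). Without 4503 these 3 calls were lost, at -1.89, -1.90 and 1.70 (adjusted p = 0.0633, 0.0834 and 0.0687 by edgeR). The lowest adipocyte sum and the lowest *Hk2* were both in 4504, and 4502, with the next lowest *Hk2*, had the highest adipocyte sum of all. Most of the sum in 4502 was *Cfd* (2396 CPM) and *Fabp4* (1230 CPM), both above every WT control library. *Plin1* (49.0 CPM) and *Lep* (12.7 CPM) in 4502 were below every WT control library, and the remaining markers lay on both sides. The part of adipocytes in the *Hk2* result was not tested.

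The phosphofructokinases differed in how much they spread. *Pfkp*, the platelet form, was 39.1, 43.9, 41.8 and 39.3 CPM in WT control, 34.5, 25.9, 36.7 and 34.6 CPM in *Mtmr2* KO and 36.9, 38.3, 36.2 and 34.5 CPM with niacin. All 8 libraries of *Mtmr2* -/- mice lay below the WT control libraries. The log2 fold change was -0.32 ± 0.12 in *Mtmr2* KO (19.7% lower, adjusted p = 0.200 by edgeR), -0.38 without 4503 (adjusted p = 0.159), and -0.17 ± 0.12 with niacin against WT control (adjusted p = 0.369). Against *Mtmr2* KO the niacin group gave 0.15 ± 0.12 (adjusted p = 0.513), or 0.20 without 4503. Exons of *Pfkp* overlap those of *Pitrm1* on the other strand, and whether the authors counted by strand is not stated, so reads of the overlap cannot be told apart.

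*Pfkm*, the muscle form, stayed at 92.0, 90.3, 92.1 and 83.1 CPM in WT control. It was 95.5, 55.9, 119 and 103 CPM in *Mtmr2* KO. It ran from 46.4 CPM in 4508 and 75.6 CPM in 4505 to 113 CPM in 4507 and 136 CPM in 4506. The groups overlapped in all comparisons, with fitted log2 fold changes of 0.06, -0.01 and 0.05, each ± 0.28. Without 4503 the first changed sign to -0.08 and the second to 0.13. The near-equal means with niacin joined 2 libraries above and 2 below the WT control range, and without 4506 and 4507 the log2 fold change against WT control was -0.57. Its exons overlap those of *Senp1* and *Gm26513*.

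*Aldoa*, the aldolase of muscle and most other tissues, was the most abundant member and the one most like the muscle markers. It read 737, 769, 708 and 693 CPM in WT control. It read 806, 787, 862 and 798 CPM in *Mtmr2* KO. With niacin it was 824 and 741 CPM in 4505 and 4508 but 1306 and 1242 CPM in 4506 and 4507. The *Mtmr2* KO libraries lay above all WT control libraries, although the fold was small, 0.16 ± 0.18 on the log2 scale (adjusted p = 0.675 by edgeR), or 0.13 without 4503. The niacin group gave 0.34 ± 0.18 against *Mtmr2* KO and 0.50 ± 0.18 against WT control (adjusted p = 0.320 and 0.141 by edgeR), and -0.06 and 0.08 without 4506 and 4507. Without 4503 the former was 0.37. Exons of *Aldoa* overlap those of *Fam57b* on the other strand.

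*Pkm*, whose M1 and M2 splice forms the gene counts do not separate, showed no group apart. It was 449, 474, 441 and 425 CPM in WT control. It was 477, 276, 396 and 476 CPM in *Mtmr2* KO and 497, 545, 497 and 386 CPM with niacin. The fitted log2 fold changes were -0.14 ± 0.18, 0.24 ± 0.18 and 0.10 ± 0.18 (adjusted p = 0.717, 0.466 and 0.735 by edgeR), and the first was 0.00 without 4502, which held the lowest value. Without 4503 the first 2 were -0.13 and 0.23. Exons of *Pkm* overlap those of *Gm49759*.

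Counted by whether the 4 libraries of 2 groups overlap, *Ldhb* and *Aldoa* lay wholly higher and *Slc16a1*, *Hk2* and *Pfkp* wholly lower in *Mtmr2* KO than in WT control, 2 and 3 of 10 members, beside 3.85% and 5.46% of all genes tested. In niacin against *Mtmr2* KO, *Pgk1* lay wholly higher and no member wholly lower, beside 3.6% and 3.4% of all genes. In niacin against WT control, *Pgk1*, *Ldha* and *Ldhb* lay wholly higher and *Hk1* and *Pfkp* wholly lower, 3 and 2 of 10 members, beside 14.9% and 16.6% of all genes. The median log2 fold change of the 10 members was -0.13, 0.26 and 0.08 in the 3 comparisons, beside 0.03, -0.04 and 0.02 over all genes, and without 4506 and 4507 it was -0.15, 0.03 and -0.08. Without 4503 the member medians were -0.11, 0.28 and 0.08. Again 2 members lay wholly higher and 3 wholly lower in *Mtmr2* KO than in WT control, beside 5.53% and 7.53% of all genes, and 1 wholly higher and 0 wholly lower in niacin than in *Mtmr2* KO, beside 4.19% and 3.96%.

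**Figure D3:**
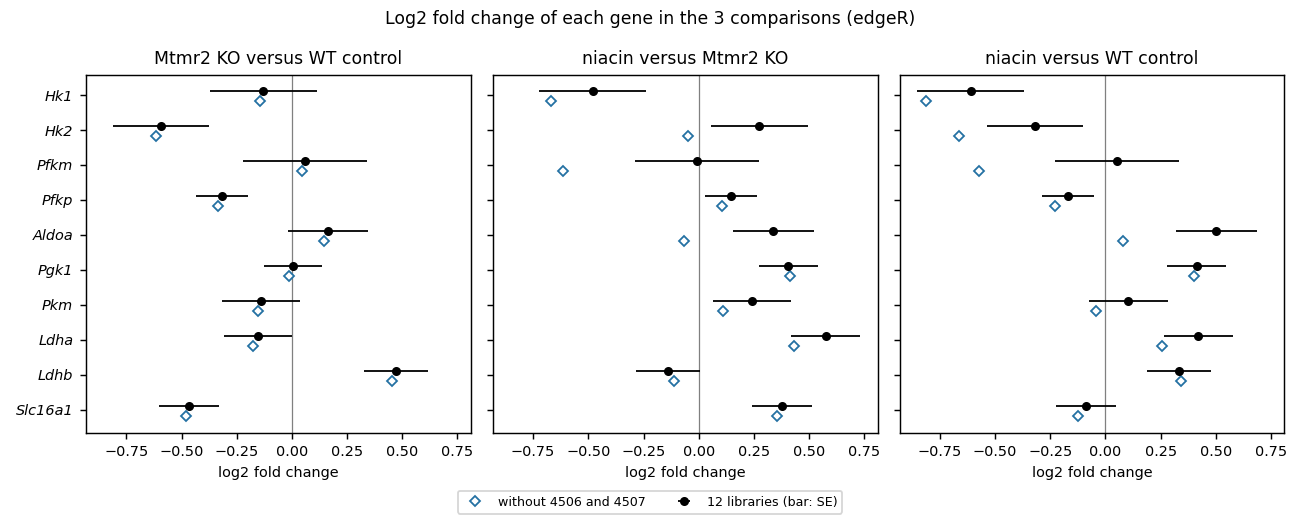
Log2 fold change of each gene in the 3 comparisons by edgeR over 12 libraries (filled points, bars 1 SE) and without the niacin-treated libraries 4506 and 4507 (open diamonds). Removing those libraries moves *Pfkm*, *Aldoa* and *Hk2* to the left in both niacin comparisons, and leaves *Pgk1* at 0.41 and 0.40.

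Over all tested genes the niacin and WT control groups had the least spread. Over the 10 members the median SD of log2 CPM was 0.094 in WT control, 0.251 in *Mtmr2* KO and 0.215 with niacin. A fit of the 8 niacin and WT control libraries alone gave many calls. It called *Pgk1* (0.42, adjusted p = 0.00934 by edgeR's quasi-likelihood test), *Ldha* (0.43, 0.0161), *Ldhb* (0.34, 0.0211) and *Aldoa* (0.50, 0.0410) higher and *Hk1* (-0.61, 0.0226) lower in the niacin group. These are 4 and 1 of the 10 members, beside 16.3% of 16501 genes called higher and 17.6% called lower in the same fit. When each of the 8 libraries was left out in turn, *Pgk1* was called in 8 of 8 fits, *Ldha* in 6, *Hk1* in 4, *Ldhb* in 3, *Aldoa* in 2 and *Hk2* in 1. Without 4506 and 4507 together no member was called higher (*Pgk1* 0.43, adjusted p = 0.0544, *Ldha* 0.28, 0.185, *Aldoa* 0.10, 0.666, all by edgeR), and *Hk1* (-0.79, 0.0280), *Hk2* (-0.64, 0.0189) and *Pfkm* (-0.55, 0.0492) were called lower. That fit called 10.9% of 17526 genes higher and 14.1% lower.

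**Figure D4:**
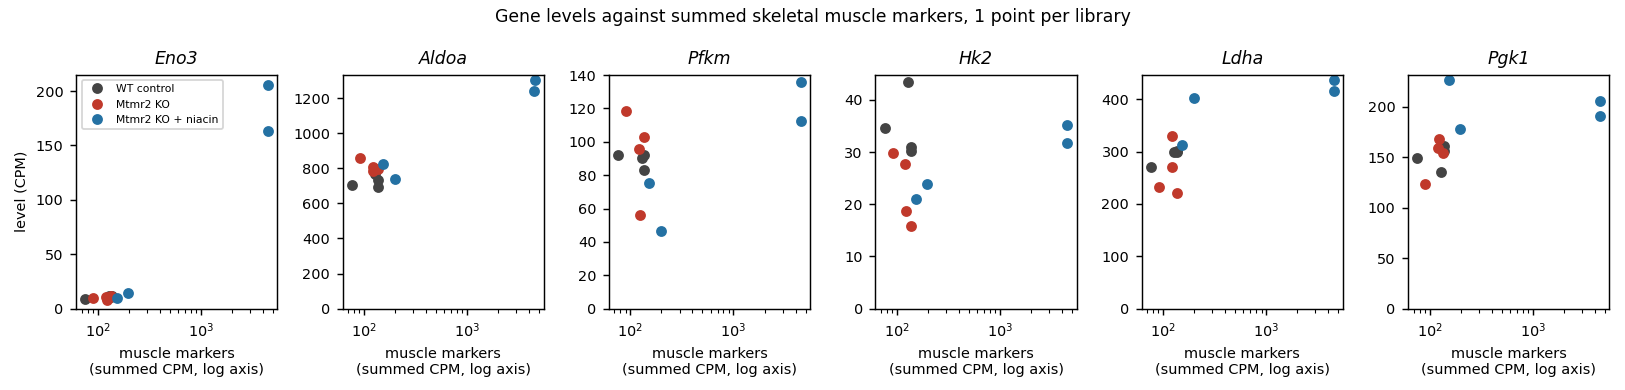
Level (CPM, linear axes from 0) of *Eno3* and 5 members against the summed level of 20 skeletal muscle markers (CPM, log axis), 1 point per library. The 2 niacin-treated libraries at 4521 and 4504 CPM of muscle markers hold the highest *Eno3*, *Aldoa* and, in 4506, *Pfkm*, whereas the highest *Pgk1* is in a library at 153 CPM.

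The other steps of the pathway were read from a list of 24 further enzymes of glycolysis, of which 21 were high enough to test. None was called in *Mtmr2* KO against WT control, 1 was called higher and 0 lower in niacin against *Mtmr2* KO, and none in niacin against WT control (edgeR over 12 libraries). The called gene was *Eno3*, the muscle enolase, with a log2 fold change of 3.30 ± 0.75 (adjusted p = 0.0470). It read 163 and 205 CPM in 4506 and 4507 and 8.12 to 14.4 CPM in the other 10 libraries, and its fold was 0.26 without those 2. Without 4503 the fold was 3.30 and not called (adjusted p = 0.116 by edgeR). Of the 21 enzymes, niacin libraries lay wholly above WT control for *Gapdh*, *Tpi1* and *Eno1* and wholly below it for *Pgam1*, *Pfkl* and *Adpgk*, 3 and 3, beside 14.9% and 16.6% of all genes. *Gapdh*, glyceraldehyde phosphate dehydrogenase, was 603 to 655 CPM in WT control, 718 to 1050 CPM in *Mtmr2* KO and 904 to 1148 CPM with niacin, and against WT control the niacin group gave 0.66 ± 0.16 on the log2 scale (adjusted p = 0.0833 by edgeR), or 0.50 without 4506 and 4507. *Tpi1*, triose phosphate isomerase, gave 0.41 ± 0.13 and *Eno1*, the widespread enolase, 0.31 ± 0.13 in the same comparison (adjusted p = 0.109 and 0.172 by edgeR). *Pgam1*, phosphoglycerate mutase, gave -0.38 ± 0.19, *Pfkl*, the liver phosphofructokinase, -0.56 ± 0.25 and *Adpgk*, the ADP-dependent glucokinase, -0.54 ± 0.18 (adjusted p = 0.217, 0.193 and 0.127 by edgeR). In the fit of the 2 groups alone 5 of the 21 enzymes were called higher and 3 lower, beside 16.3% and 17.6% of all genes. *Gapdh* also lay wholly above WT control in *Mtmr2* KO (0.39 ± 0.16, adjusted p = 0.224, or 0.41 without 4503). Wholly below WT control in *Mtmr2* KO, 4503 included, were *Pfkfb3* (26.8 to 67.5 against 81.1 to 135 CPM) and *Adpgk* (8.74 to 17.5 against 17.8 to 21.5 CPM). These were 1 higher and 2 lower of the 21 enzymes, beside 3.85% and 5.46% of all genes. In niacin against *Mtmr2* KO 3 of the 21 lay wholly higher and 0 wholly lower, beside 3.6% and 3.4% of all genes. *Tpi1* and *Eno1* were among the 3, and like *Pgk1* they lay above every library of both other groups. *Tpi1* was 275 to 363 CPM with niacin and 211 to 264 CPM in *Mtmr2* KO, and *Eno1* 316 to 369 and 230 to 305 CPM.

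**Figure D5:**
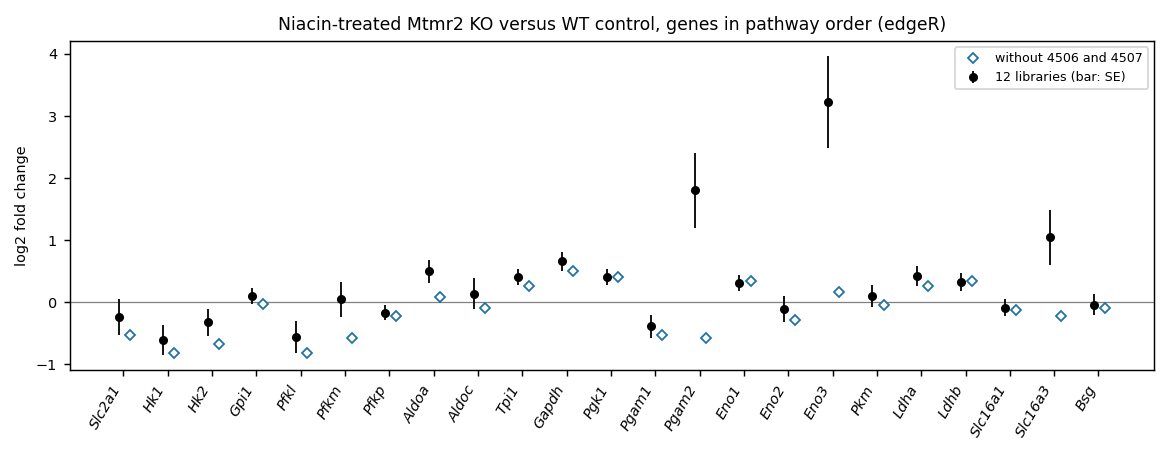
Log2 fold change of niacin-treated *Mtmr2* KO against WT control for members and neighbouring genes in pathway order, by edgeR over 12 libraries (filled points, bars 1 SE) and without 4506 and 4507 (open diamonds). *Gapdh*, *Pgk1*, *Tpi1*, *Eno1*, *Ldha* and *Ldhb* stay above 0 either way, while *Eno3*, *Pgam2* and *Slc16a3* fall to near or under 0 without those libraries.

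Transport of glucose and monocarboxylates was read from 14 genes, all tested, of which none was called in any of the 3 comparisons by edgeR. *Bsg*, basigin, the chaperone that carries MCT1 to the membrane, was 450 to 523 CPM in WT control, 303 to 524 CPM in *Mtmr2* KO and 400 to 557 CPM with niacin, with *Mtmr2* KO against WT control at -0.23 ± 0.17 (adjusted p = 0.522 by edgeR), or -0.21 without 4503. *Slc2a1* (GLUT1), the glucose carrier of perineurium and Schwann cells, was 195 to 262 CPM in WT control and 125, 229, 252 and 442 CPM in *Mtmr2* KO, the lowest in 4502 and the highest in 4503. *Slc2a4* (GLUT4), the insulin-responsive carrier, gave -0.95 ± 0.38 in *Mtmr2* KO against WT control with overlapping groups (adjusted p = 0.224 by edgeR), or -1.23 without 4503 (adjusted p = 0.157). *Slc16a3* (MCT4), a lactate exporter of glycolytic muscle, was 12.1 and 13.5 CPM in 4506 and 4507 and 2.51 to 6.90 CPM in the other 10 libraries, so the count ratio of *Slc16a1* over *Slc16a3* in the niacin group depended on those 2.

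Beyond lactate, 14 genes of pyruvate handling in mitochondria held no call in any comparison. They cover the mitochondrial pyruvate carrier, pyruvate dehydrogenase, its kinases and phosphatases, and pyruvate carboxylase, so a median over them does not measure pyruvate entry. Their 3 most abundant, *Pcx*, *Pdha1* and *Dld*, are pyruvate carboxylase and parts of the pyruvate dehydrogenase complex. The median log2 fold change of the 14 was 0.03 in *Mtmr2* KO against WT control, 0.33 in niacin against *Mtmr2* KO and 0.25 in niacin against WT control, and without 4503 these were -0.08, 0.24 and 0.25. Of 14 glycogen genes, 1 was called higher in niacin against *Mtmr2* KO and none in the other comparisons (edgeR over 12 libraries). It was *Pgm2*, a phosphoglucomutase, with 0.75 ± 0.13 (adjusted p = 0.0387), 43.8 to 52.3 CPM in *Mtmr2* KO, 66.1 to 94.9 CPM with niacin and 59.5 to 68.2 CPM in WT control, and its fold was 0.51 without 4506 and 4507. Without 4503 it was 0.71 and not called (adjusted p = 0.0728 by edgeR), while *Ugp2* was called higher in niacin against WT control (0.47, adjusted p = 0.0497). The most abundant of the list were *Pygb*, *Ugp2* and *Pygl*, 2 phosphorylases and UDP-glucose pyrophosphorylase. Of 7 pentose phosphate genes, led by *Tkt*, *Taldo1* and *Pgd*, and of 11 genes of gluconeogenesis and the NADH shuttles, led by *Pck1*, *Mdh1* and *Gpd1*, none was called.

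Among 16 regulators of glycolysis and hypoxia targets (15 tested), *Ankrd37*, a small hypoxia target, was the only one called, in *Mtmr2* KO against WT control (1.67 ± 0.30, adjusted p = 0.0448 by edgeR), and without 4503 it was 1.38 and not called (adjusted p = 0.0834). Levels were low, 0.436 to 0.649 CPM in WT control, 1.40 to 2.72 CPM in *Mtmr2* KO and 0.694 to 1.27 CPM with niacin. The abundant hypoxia targets *Egln1* and *Bnip3*, like *Slc2a1*, were not called, and the median of the 15 was -0.01, -0.28 and -0.24 in the 3 comparisons, or -0.15, -0.14 and -0.24 without 4503.

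The genes whose log2 CPM ran most closely with each member over the 12 libraries are given as a description, with Pearson's r over 12 points that share group, depth and cell makeup. *Aldoa* ran with the muscle genes *Neb* (0.949), *Actn3* (0.941) and *Cmya5* (0.940), and *Pfkm* with *Tmem38a* (0.891), *Mrpl4* (0.880) and *Lbp* (0.873). *Hk2* ran with *Slc2a4* (0.944), *Afdn* (0.940) and *Gys1* (0.928), the insulin-responsive glucose carrier and glycogen synthase among them. *Hk1* ran with *App* (0.989), *Pip4k2c* (0.988) and *Pxdc1* (0.984), and *Pfkp* with *Lpcat3* (0.971), *Mknk1* (0.950) and *Txnrd3* (0.940). *Pgk1* ran with *Pde1c* (0.979), *Mob1a* (0.971) and *Dctn4* (0.961), and *Pkm* with *Zfp3* (0.933), *Ankrd9* (0.932) and *Nt5c1a* (0.927). *Ldha* ran with *Idh3b* (0.940), *Mgmt* (0.929) and *Idh3a* (0.915), of which *Idh3b* and *Idh3a* are subunits of one enzyme of the citric acid cycle. *Ldhb* ran with *Rnf7* (0.968), *Gm14165* (0.965) and *Cd9* (0.963), and *Slc16a1* with *Itgb3* (0.961), *B3galt6* (0.939) and *Ppic* (0.935). Between members the highest r was 0.734, for *Hk2* and *Pfkp*, and the lowest -0.894, for *Pfkp* and *Ldhb*. *Ldha* and *Ldhb* gave 0.064.

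The members lie on GRCm38 (GENCODE M21) at chr10:62268855-62379908 (*Hk1*), chr6:82725025-82774454 (*Hk2*), chr15:98092589-98132451 (*Pfkm*), chr13:6579768-6648777 (*Pfkp*), chr7:126795234-126800751 (*Aldoa*), chrX:106187100-106203699 (*Pgk1*), chr9:59656368-59679375 (*Pkm*), chr7:46841475-46855627 (*Ldha*), chr6:142490249-142507957 (*Ldhb*) and chr3:104638668-104658462 (*Slc16a1*). Several have near-identical copies, mostly processed pseudogenes, that can share reads. Genes with at least 90% identity over 200 bases numbered 12 for *Ldha*, 6 for *Pkm*, 4 for *Pgk1*, 3 for *Aldoa* and 1 for *Ldhb*. Their summed counts came to at most 0.801% of those of the member, the largest share being that of *Gm5514* beside *Ldhb*.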

How the data were processed

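Sciatic nerve RNA with polyA selection was sequenced as paired reads. The authors mapped reads to GRCm38/mm10 with STAR and deposited whole-number read counts per Ensembl gene, without normalization. CASAVA 1.9 and DESeq2 are also named in the submitters' processing notes. Versions of STAR, the counting program, annotation and strand handling were not stated. Also deposited was a DESeq2 table per comparison, with fold changes, p-values and adjusted p-values, of which only the gene symbols were used.

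The deposited counts went into edgeR 4.0.16 (R 4.3.3). After filterByExpr and TMM scaling, all 12 libraries entered 1 quasi-likelihood fit with no covariate, tested two-sided and with Benjamini-Hochberg adjustment over all 17257 genes tested. Levels are CPM, and log2 CPM used a prior count of 2. SEs were derived from the fold change and its F statistic. Groups were taken as apart when no library of one overlapped the other. Count ratios were tested by exact permutation over all 70 ways to draw 4 of 8 libraries (SciPy 1.17.1). Each library is 1 mouse, and totals ran from 20763951 to 33191106 counts. Alternatives used DESeq2 1.42.0, limma 3.58.1, other scalings, filters, muscle markers or *Xist* as a covariate, the 2 groups alone and each library left out. Leaving out 4506 and 4507, or 4502 and 4503, and the leave-one-out fits of 2 groups alone were chosen after seeing the data. The fit was tested on simulated counts. Those had the same spread in every group, so that test does not cover the unequal spreads seen here. Copies were found with blastn 2.17.0. Promoters are from RefSeq.

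The members and lists were chosen with earlier results of these data known. Named genes are the 10 members, the 3 most abundant and every called gene of each list (or the 3 with the smallest p), the 3 genes of highest r with each member, and *Mtmr2*. *Pgam1*, *Pfkl*, *Adpgk*, *Pfkfb3*, *Pgam2* and *Slc16a3* were chosen after their values were seen.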

Additional observations from a re-analysis of the deposited data

Results flagged for a closer look

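One value stood far from the rest of its group. *Ldha* in WT control library 4499 was 269.6 CPM, and its gap to the next library, divided by the range of the group, was 0.922, above Dixon's critical value for 4 samples. Of 30 combinations of a member and a group tested, 1 was so marked, and chance marks about 1.5. Without 4499 the direction of every *Ldha* comparison was the same.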

How the results depend on the processing

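No paired analysis was possible because the groups share no replicate numbers. Of 810 fold changes recomputed under alternatives, 705 kept both their sign and their side of the threshold, 61 gained a call and 44 changed sign, most of the latter with a fold near 0. The cause was not tested. Each count of members called is given with the share of all genes the same fit called that way. In *Mtmr2* KO against WT control edgeR called 0 higher (0.0464%) and 0 lower (0.22%), and DESeq2 on 12 libraries 1 (1.47%) and 1 (2.24%). Those called higher in niacin against *Mtmr2* KO numbered 0 at first (0.695%), 1 with library totals only (1.12%), 1 with DESeq2 on 12 libraries (2.89%), 2 with limma-voom (4.68%) and 1 without 4502 and 4503 (4.59%, with 1 lower beside 7.92%). With 1 library left out they ran from 0 to 2 higher and 0 to 1 lower, the highest being without 4502 (9.85% and 13.7%). In niacin against WT control, those called higher and lower numbered 4 and 1 on the 2 groups alone (16.3% and 17.6% with edgeR, 16.6% and 20.4% with DESeq2), 4 and 2 with limma-voom (42.4% in either direction), 4 and 1 without 4502 and 4503 (13.8% and 15.8%) and 0 and 3 on the 2 groups without 4506 and 4507 (10.9% and 14.1%). They ran from 0 to 2 and 0 to 1 with 1 library of 12 left out, the highest being without 4502 (8.9% and 12.7%), and from 1 to 4 and 0 to 2 with 1 of those 8 left out, in fits that called 9.21% to 16.3% of all genes higher and at most 18.7% lower.

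Signs changed in *Mtmr2* KO against WT control as follows. Without 4502 and 4503 *Hk1* gave 0.08 and *Pkm* 0.10, *Pkm* gave 0.01 with limma-voom, *Pfkm* -0.01 with library totals only, and *Pgk1* -0.07 with library totals, -0.06 with no filter, -0.01 without 4506 and 4507, -0.01 with DESeq2 on 12 libraries and -0.02 on the 2 groups. With 1 library left out *Hk1* ran from -0.26 to 0.06, *Pfkm* from -0.08 to 0.24, *Pgk1* from -0.05 to 0.09 and *Pkm* from -0.23 to 0.00. In niacin against *Mtmr2* KO, *Hk2* gave -0.07 with the muscle markers as a covariate and -0.05 without 4506 and 4507, *Aldoa* -0.12 and -0.06, *Ldhb* 0.01 without 4502 and 4503, and *Pfkm* 0.08 with library totals, 0.01 with no filter, 0.01 with DESeq2 on the 2 groups, 0.02 with limma-voom and -0.27 to 0.22 with 1 library left out. In niacin against WT control, *Pfkm* gave -0.61 with the covariate, -0.57 without 4506 and 4507, -0.55 without both on the 2 groups, -0.21 and -0.06 without 4506 or 4507 on the 2 groups, and -0.21 to 0.27 with 1 of 12 left out, and *Pkm* gave -0.04, -0.04 and -0.02 in the first 3 of these.

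Without 4506 and 4507 the log2 ratio in niacin against WT control became -0.39 for *Pfkm* over *Pfkp*, -0.09 for *Ldha* over *Ldhb* and 0.06 for *Slc16a1* over *Slc16a3*, and 0.82 for the last against *Mtmr2* KO. With 1 library left out *Pfkm* over *Pfkp* ran from -0.43 to 0.04 against *Mtmr2* KO and from -0.09 to 0.38 against WT control, *Slc16a1* over *Slc16a3* from -0.45 to 0.21 against *Mtmr2* KO, and *Slc2a1* over *Slc2a4* from -0.15 to 0.36 against WT control.

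Over all genes the number of calls depended strongly on the fit. In niacin against WT control edgeR called 0 over 12 libraries (4254 at an unadjusted p under 0.05), 5586 on the 2 groups alone and 3826 without 4502, and in niacin against *Mtmr2* KO 246, or 0 with the muscle markers as a covariate.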
